A study of Homo sapiens with 6 samples.

Results

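The genes described here are 53 protein-coding genes that were at strongly reduced levels, in some cases near 0, in Kasumi-1 cells after SETD8 knockout. They were taken from a deposited table of 7983 genes, 7016 of them protein-coding, by their own values: a control mean of at least 50 normalized reads and a knockout mean at least 6 times lower. MPO, BCL6, CD109, INHBA and HLA-DRA met the same limits and were left out by name. Because the knockout against control difference chose these genes, their levels are a description and carry no test. The same limits were met by 0.910% of the 6375 protein-coding genes with a control mean of at least 50, the genes left out by name included. All 53 passed the minimum level for testing, a mean of 10 normalized reads over all libraries. The rule fixes this, since a control mean of at least 50 is enough to pass whatever the knockout level.

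Kasumi-1 is a human acute myeloid leukaemia line with the t(8;21) translocation, which fuses RUNX1 to RUNX1T1. The control group was 3 libraries of cells of this line given a non-targeting guide (sgNT, genotype WT), and the knockout group was 3 libraries of Kasumi-1 cells in which SETD8 was knocked out with CRISPR/Cas9 (sgSETD8). Both groups therefore carried a guide and came from the same line, grown in RPMI 1640 with serum and antibiotics. The time after the guide was delivered, whether the cells were a clone or a pool, and whether the numbers 1 to 3 mark separate guides or cultures are not stated in the labels, so the spread between libraries may be technical.

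SETD8, now named KMT5A, is the enzyme that adds a single methyl group to lysine 20 of histone H4. The mark is known for its part in chromosome compaction and cell division, and it has been tied to both repression and activity of genes. RUNX1-RUNX1T1 binds DNA at RUNX sites and recruits corepressors, and it holds leukaemic cells at an immature myeloid stage. Genes of very different duties are described below: transcription factors, surface receptors, secreted proteins, signalling proteins and enzymes.

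Each library held 10966349 to 12557974 reads in the listed genes. The chi-square per degree of freedom between libraries of the same group was 3.83 to 11.9, beyond counting noise. KMT5A itself stood at 1191, 1212 and 1255 normalized reads in controls and at 880, 933 and 939 in knockouts, a log2 fold change of -0.41 (SE 0.07, limma adjusted p = 5.65e-05), and an RNA level does not report the protein. Genes of the t(8;21) line were present in both groups: KIT had means of 60704 and 43551 normalized reads in control and knockout, RUNX1T1 of 2760 and 3054, and POU4F1 of 587 and 841. Of the 5 tested genes on a list of genes high in t(8;21) leukaemia, which does not hold KIT, 3 were higher and 1 was lower in knockouts. Over all tested genes, 47.3% were higher and 46.7% lower. The table lists only genes with an unadjusted p below 0.05 in the authors' own comparison, so genes that did not move, or were too low, are not in it. RNA was measured in bulk, so fewer cells of a type and less RNA per cell cannot be told apart.

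The start regions of 5 of the genes are shown because they hold the letters of a RUNX site, the DNA motif of the leukaemia's own fusion protein, because their RefSeq start lies within 100 bases of the start of the deposited gene model, and because the bases just after that start match a GENCODE 29 transcript of the gene. IKZF2 and NBEA also hold such letters and start within 100 bases, but their bases after the start match no such transcript. Each run is the RefSeq sequence on GRCh38.p14 upstream of both starts, 5′ to 3′ on the gene's strand, and capitals mark TGTGGT or TGCGGT on that strand or their reverse complements. FLRT2 is taken from chr14:85529894-85530143 (plus strand), GBGT1 from chr9:133163946-133164164 (minus strand), LAX1 from chr1:203764933-203765175 (plus strand), RGS1 from chr1:192575523-192575726 (plus strand) and SYT11 from chr1:155859317-155859508 (plus strand).
FLRT2: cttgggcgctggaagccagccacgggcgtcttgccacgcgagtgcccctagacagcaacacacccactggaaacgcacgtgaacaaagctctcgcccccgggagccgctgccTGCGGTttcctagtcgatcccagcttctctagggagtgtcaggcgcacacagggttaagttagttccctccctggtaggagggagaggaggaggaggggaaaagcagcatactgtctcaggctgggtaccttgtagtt
GBGT1: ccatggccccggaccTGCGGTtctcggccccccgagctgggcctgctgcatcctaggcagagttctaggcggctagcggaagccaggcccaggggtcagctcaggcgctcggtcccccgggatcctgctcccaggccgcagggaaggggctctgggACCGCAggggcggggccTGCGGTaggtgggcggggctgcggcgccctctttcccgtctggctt
LAX1: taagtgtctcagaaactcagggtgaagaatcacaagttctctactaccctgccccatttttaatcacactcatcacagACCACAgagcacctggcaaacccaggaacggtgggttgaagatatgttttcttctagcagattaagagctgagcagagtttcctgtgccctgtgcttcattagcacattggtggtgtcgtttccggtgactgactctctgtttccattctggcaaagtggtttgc
RGS1: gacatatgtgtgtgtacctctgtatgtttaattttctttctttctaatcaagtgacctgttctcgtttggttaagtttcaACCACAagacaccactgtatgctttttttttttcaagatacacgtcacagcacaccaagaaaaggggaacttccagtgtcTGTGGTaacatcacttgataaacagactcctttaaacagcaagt
SYT11: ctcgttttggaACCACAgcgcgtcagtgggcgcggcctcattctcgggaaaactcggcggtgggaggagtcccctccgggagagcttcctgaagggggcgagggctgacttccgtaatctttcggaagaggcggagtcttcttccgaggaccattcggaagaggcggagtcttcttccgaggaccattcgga
GBGT1 holds 3 such matches, RGS1 holds 2, and FLRT2, LAX1 and SYT11 hold 1 each. A match is a description of letters, not a bound site. FLRT2 and SYT11 were among the most completely silenced genes, as described next, while RGS1 and GBGT1 kept close to 10% of their control level.

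In control cells the 53 genes had means of 58.5 to 1542 normalized reads with a median of 176, and in knockout cells their means were 0 to 235 with a median of 14.1. The level left was 9.05% of the control mean at the median and 16.4% at most. It was under 2% for 6 genes, 2 to 5% for 9, 5 to 10% for 17 and above 10% for 21. Summed over the 53 genes, the control libraries held 14224, 14457 and 14216 normalized reads and the knockout libraries 1266, 1305 and 1378. The 3 knockout libraries were thus alike in sum, although knockout 3 was the highest of its group for 24 genes, against 13 for knockout 1 and 14 for knockout 2.

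**Figure D1:**
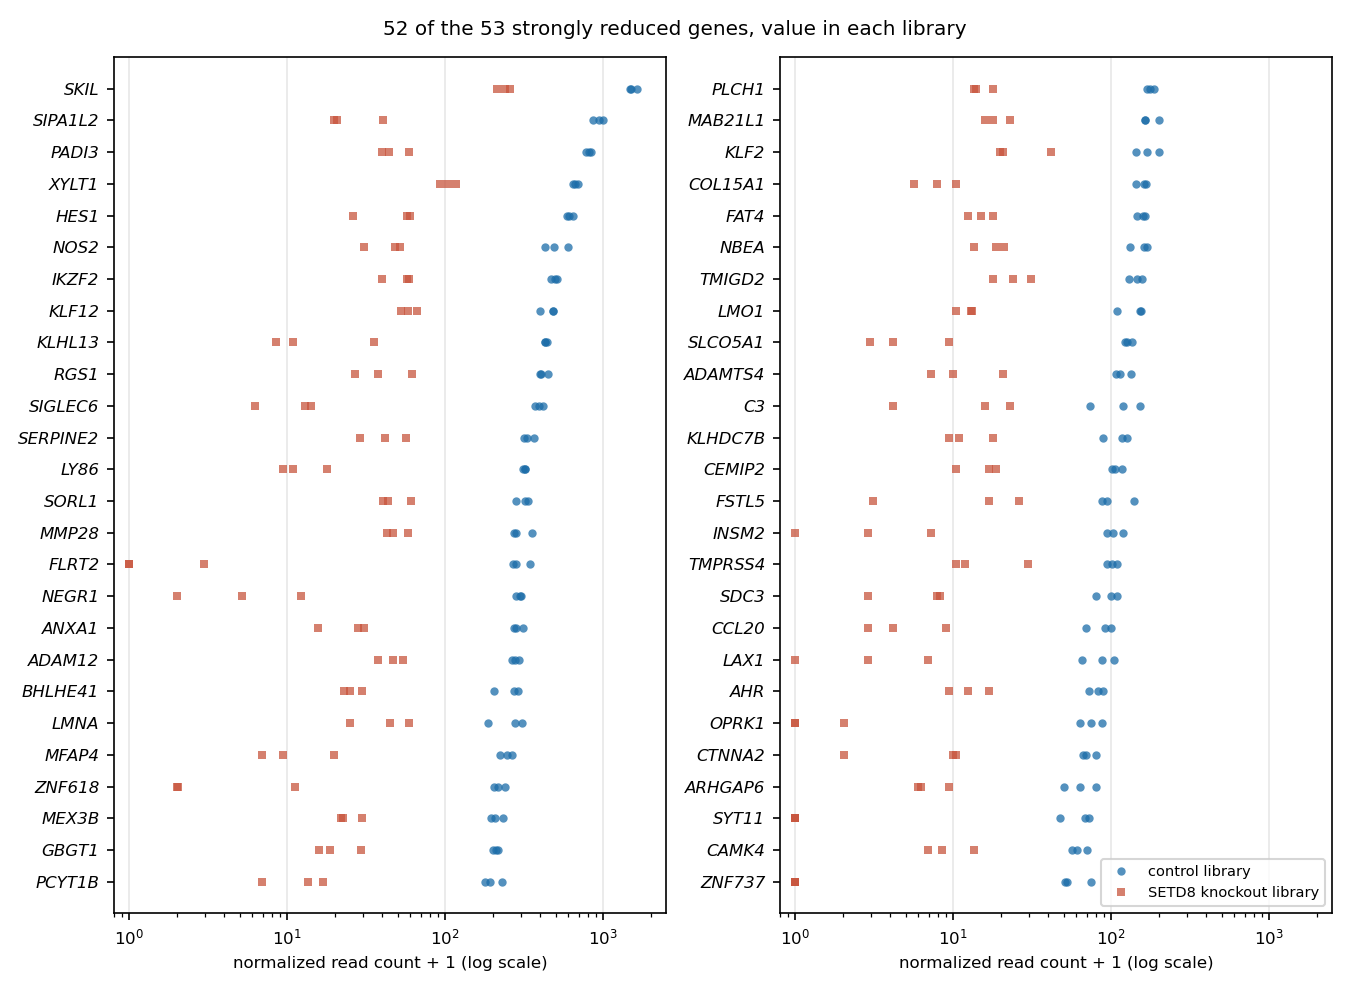
Normalized read count plus 1 (log axis) of 52 of the 53 genes, a row each, in the 3 control libraries (circles) and the 3 SETD8 knockout libraries (squares), with genes ordered by control mean. The groups do not overlap for any gene, from SKIL at the top (1542 against 235) to ZNF737 at the bottom (58.5 against 0).

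No gene overlapped between groups, as its own selection favours; over all tested genes, 47.4% had every knockout library below every control library. A wider gap, the highest knockout library at least 6 times below the lowest control library, held for 35 of the 53. Closest inside the limit on fold lay LMNA (6.09-fold), TMPRSS4 (6.11-fold), ADAM12 (6.14-fold), TMIGD2 (6.15-fold) and MMP28 (6.27-fold). Closest outside it lay FAM57B (5.85-fold), HSPA1B and PMEPA1 (both 5.81-fold), PCDH7 and HDAC9 (both 5.80-fold). On the limit of level, ZNF737 was the lowest gene inside with a control mean of 58.5, while PDE2A at 47.7 and DCLK2 at 47.1 fell just outside.

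Transcriptional regulators made up 11 of the 53, and the deposited annotation assigned a transcription factor family to 9 of the 53 (17.0%), against 479 of the other 6322 protein-coding genes at that level (7.58%). SKIL, which encodes SnoN, a repressor of TGF-beta signalling through SMAD proteins, was the most abundant of the 53. Its values were 1642, 1508 and 1477 normalized reads in control libraries 1 to 3 and 212, 237 and 255 in knockout libraries 1 to 3. The libraries within a group were close together, and SKIL kept the highest knockout mean of all, 235 ± 21.8 (SD, n = 3). HES1, a basic helix-loop-helix repressor and a classic target of Notch, had 587, 642 and 603 in controls and 56.3, 58.6 and 25.2 in knockouts, 7.65% of the control mean. Knockout 3 was the low library for HES1. Per kilobase of gene model, HES1 had the highest control level of the 53, 296 normalized reads per kb, against a median of 34.7.

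IKZF2 encodes Helios, a zinc finger protein of the Ikaros family known from regulatory T cells and stem cells. It stood at 495, 507 and 466 normalized reads in controls and 56.3, 38.7 and 57.9 in knockouts. KLF12, a Krüppel-like repressor, stood at 480.3, 399.6 and 482 in controls and 65.7, 51.6 and 57.0 in knockouts. IKZF2 kept 10.4% and KLF12 12.8% of the control mean, and every knockout library was far below the lowest control. BHLHE41, a helix-loop-helix repressor of the circadian system, was more variable in controls, at 288, 204 and 272, than in knockouts, at 21.9, 23.8 and 28.9.

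ZNF618 (ENSG00000157657, chr9:113876282-114056591, plus strand) encodes a zinc finger protein reported to bind 5-hydroxymethylcytosine, an oxidised form of methylated cytosine. Its control values were 238, 203 and 216 normalized reads. Its knockout values were 1.04, 0.993 and 10.3, a single read in each of libraries 1 and 2, so nearly all of the remaining signal came from knockout 3. Over the group, 660 control reads faced 13 knockout reads, a ratio of 51.1 (exact 95% interval, for counting error alone, 29.7 to 96.5).

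ZNF737, a zinc finger gene of a chromosome 19 cluster, had no read in any knockout library against 50.1, 73.9 and 51.5 normalized reads in controls. With the knockout group set to a floor of 3 reads, it was 59.4-fold lower. The lower end of its exact interval of the read ratio, for counting error alone, was smaller, at 47.8. Genes of such clusters resemble one another, so reads of ZNF737 may be split among copies. INSM2, a neuroendocrine zinc finger factor, kept 2.59% of a control mean of 105. LMO1, a LIM-domain cofactor known from T cell leukaemia, kept 8.12% of 137. KLF2, which marks quiescent lymphocytes and endothelium, kept 15.5% of 170.1, and AHR, the receptor for dioxin and tryptophan metabolites, kept 14.8% of 80.3.

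Surface proteins and their partners were 12 of the 53, with a median of 4.68% left, the lowest of the 6 functional groups. The groups were assigned by hand, and this order depends on them. TMPRSS4, a transmembrane protease with 16.4% left, was counted with the secreted proteins and proteases. FLRT2 (ENSG00000185070, chr14:85530144-85654426, plus strand) encodes a leucine-rich repeat adhesion protein that binds latrophilins and UNC5 receptors. It had 278, 342 and 269 normalized reads in the control libraries. In knockout libraries 1 and 3 it had none, and in knockout 2 it had 1.99, which is 2 reads. The ratio of 895 control reads to 2 knockout reads was 451. Its exact 95% interval, for counting error alone, was 124 to 3727. No other gene of the 53 with a control mean this high, 296 normalized reads, had so small a share left. OPRK1, SYT11 and ZNF737, also at or near 0 in knockouts, had control means of 74.4, 61.7 and 58.5. Per kilobase of its long gene model, the control level of FLRT2 was low, at 8.49 normalized reads per kb, and below that of these genes.

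NEGR1 (ENSG00000172260, chr1:71395940-72282734, minus strand) is an adhesion molecule of the IgLON family, best known from neurons. Its control libraries held 302, 279 and 296 normalized reads. Its knockout libraries held 4.17, 0.993 and 11.2, or 1.86% of the control mean, and again knockout 3 was the highest. SIGLEC6 (ENSG00000105492, chr19:51519525-51531856, minus strand) is a sialic acid-binding receptor found on mast cells, a subset of dendritic cells and placental trophoblast. SIGLEC6 held 414, 389 and 369.6 in controls and 5.21, 11.9 and 13.1 in knockouts, 2.58% of the control mean.

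LY86 (ENSG00000112799, chr6:6588108-6654983, plus strand) encodes MD-1, a small protein that accompanies the Toll-like receptor homologue CD180 to the surface of B cells and macrophages. It was steady in controls, at 319.9, 308 and 319 normalized reads, and in knockouts it was at 8.34, 9.93 and 16.8, or 3.70%. Per kilobase its control level, 252 normalized reads per kb, was close to that of PADI3 (254) and below only PADI3 and HES1. SORL1, a sorting receptor of the LDL receptor family, had 335, 321 and 279 normalized reads in controls and 42.7, 59.6 and 39.2 in knockouts, and at 15.1% left it was among the least affected.

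The remaining surface genes were lower in abundance. OPRK1, the kappa opioid receptor, had 224 control reads and 1 knockout read, a ratio of 226. The exact 95% interval of this ratio, for counting error alone, was 40.1 to 8949. SLCO5A1, an organic anion transporter family member, kept 3.55% of a control mean of 127. SDC3, the heparan sulfate proteoglycan syndecan-3, kept 5.65% of 95.1. FAT4, a giant cadherin, and CTNNA2, the neural alpha-catenin that links cadherins to actin, kept 9.03% and 9.05% of 156 and 71.2. CEMIP2, a surface hyaluronidase, kept 13.4% of 107, and TMIGD2, a receptor for the B7 family protein HHLA2 on T and NK cells, kept 16.3% of 143.

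**Figure D2:**
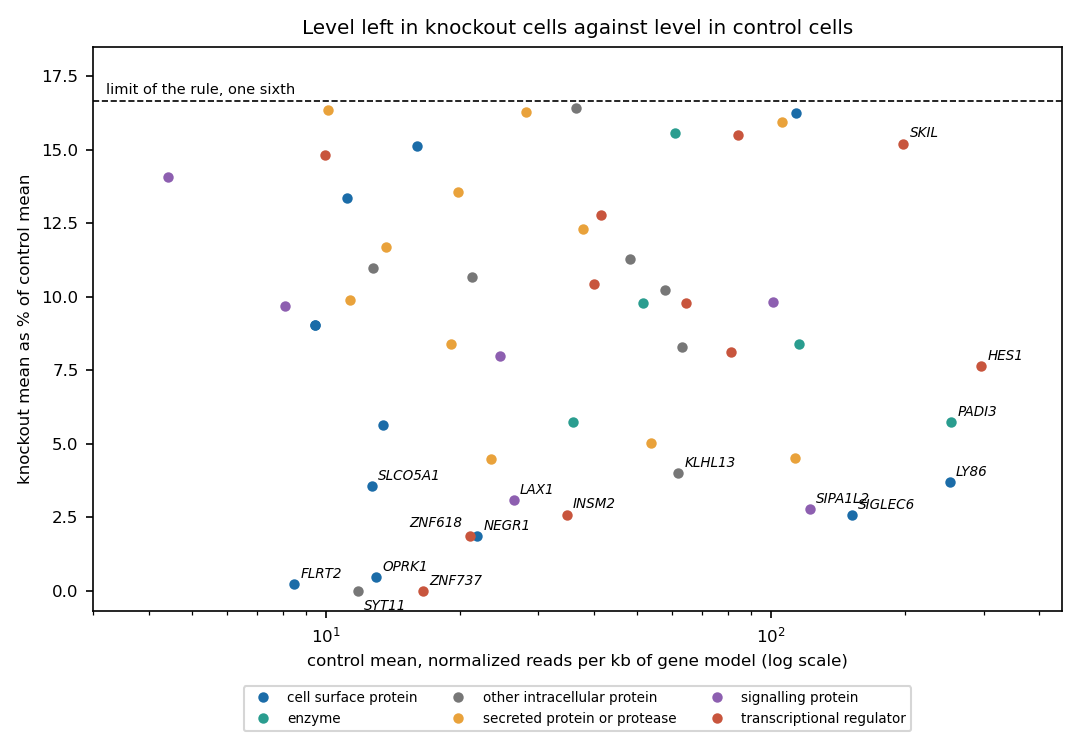
Knockout mean as a percentage of the control mean (vertical axis) against control mean per kilobase of gene model (horizontal log axis) for the 53 genes, coloured by function; the dashed line is the limit of the rule. FLRT2, OPRK1, SYT11 and ZNF737 lie at or near 0, all at modest control levels per kilobase, while HES1, PADI3 and LY86 combine high control levels with 7.65%, 5.73% and 3.70% left.

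Secreted proteins and proteases were 11 of the 53. MFAP4 (ENSG00000166482, chr17:19383442-19387240, minus strand), a fibrinogen-domain glycoprotein of elastic fibres, had 266, 244 and 220.0 normalized reads in controls and 8.34, 5.96 and 18.7 in knockouts, 4.52% of the control mean. COL15A1, a basement membrane collagen, lost as large a share, with 4.49% of 156 left. CCL20, the chemokine ligand of CCR6, kept 5.04% of 85.6.

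SERPINE2, an inhibitor of thrombin and other serine proteases, had 315, 367 and 327 normalized reads in controls and 40.6, 55.6 and 28.0 in knockouts. MMP28, a matrix metalloproteinase of epithelia, had 273, 280.0 and 354 in controls and 45.9, 41.7 and 57.0 in knockouts. ADAM12, a metalloproteinase-disintegrin, had 276, 263 and 294 in controls and 45.9, 36.7 and 53.2 in knockouts. These 3 kept more than 12% of their control level, and MMP28 and ADAM12 sat at the edge of the rule. The knockout libraries of SERPINE2 were the most spread of the 3, with a coefficient of variation of 33.3%.

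C3, the central component of complement, kept 11.7% of 114 normalized reads. C3 was the most uneven gene in controls, at 72.6, 151 and 118, with a coefficient of variation of 34.5%. ADAMTS4, an aggrecanase, kept 9.91% of 117, FSTL5, a follistatin-like protein, kept 13.6% of 106, and TMPRSS4, a transmembrane serine protease, kept 16.4% of 100.4.

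Of the 6 signalling proteins, SIPA1L2 (ENSG00000116991, chr1:232397965-232561558, minus strand) was by far the most abundant. It belongs to the SIPA1 family, whose members switch off the small GTPase RAP. Its values were 862, 992 and 946 normalized reads in controls and 19.8, 18.9 and 39.2 in knockouts, so 2.78% was left. RGS1, a regulator of G protein signalling that dampens chemokine receptors in lymphocytes, had 402, 446 and 399 in controls and 60.5, 25.8 and 36.4 in knockouts. Knockout 1 was the high library for RGS1. LAX1, an adaptor that restrains antigen receptor signalling in T and B cells, kept 3.09% of 84.4, with no read in knockout 1. PLCH1, a phospholipase C, kept 7.98% of 176. ARHGAP6, an activator of GTP hydrolysis by small GTPases, kept 9.70% of 63.9, and CAMK4, a calcium/calmodulin kinase of T cells and neurons, kept 14.1% of 61.5.

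Enzymes were 5 of the 53. PADI3 (ENSG00000142619, chr1:17249098-17284233, plus strand), a peptidylarginine deiminase that converts arginine to citrulline and is best known from hair follicles and epidermis, had 781, 831 and 815 normalized reads in controls and 38.6, 57.6 and 43.0 in knockouts, 5.73% of the control mean. NOS2, the inducible nitric oxide synthase of activated macrophages, had 428, 488 and 599 in controls and 46.9, 29.8 and 50.4 in knockouts. XYLT1, which starts glycosaminoglycan chains on proteoglycans, had 646, 697 and 660.0 in controls and 117, 92.3 and 103 in knockouts. XYLT1 kept 15.6% and NOS2 8.39%, and control 3 was the high library for NOS2. PCYT1B, an enzyme of phosphatidylcholine synthesis, kept 5.75% of 199, and GBGT1, the Forssman glycolipid synthase gene, kept 9.77% of 207.

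Of the 8 other intracellular proteins, KLHL13 (ENSG00000003096, chrX:117897813-118117340, minus strand) encodes a BTB-kelch adaptor that works with the ubiquitin ligase scaffold CUL3 on Aurora B during cell division. It was among the steadiest genes in controls, at 429, 426 and 440.0 normalized reads. In knockouts it was at 34.4, 9.93 and 7.47, so that knockout 1 held most of the 4.00% that was left. ANXA1, the glucocorticoid-induced annexin, had 280.0, 270.3 and 310.2 in controls and 14.6, 29.8 and 27.1 in knockouts. LMNA, which encodes the A-type lamins of the nuclear lamina, had 274, 303 and 186 in controls and 24.0, 57.6 and 43.9 in knockouts. LMNA was the gene nearest the limit, and both of its groups were widely spread.

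MEX3B, an RNA-binding ubiquitin ligase, had 205, 232 and 193 normalized reads in controls and 20.8, 28.8 and 21.5 in knockouts, 11.3% of the control mean. SYT11, a synaptotagmin that also acts in macrophages, had 71.5, 67.1 and 46.6 in controls and no read in any knockout library. It was 62.4-fold lower with the same floor of 3 reads over the group. The lower end of its exact interval of the read ratio, for counting error alone, was smaller, at 50.3. MAB21L1, a developmental gene of eye and brain, kept 10.2% of 175. NBEA, the trafficking protein neurobeachin in whose intron MAB21L1 lies, kept 11.0% of 152, and KLHDC7B, another kelch-domain gene, kept 10.7% of 109.

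Length was not part of the rule. The gene models of the 53 had a median of 6983 bases, against 5371 for the other 6322 protein-coding genes with a control mean of at least 50, and their genomic spans had a median of 52859 bases against 33500. The control level per kilobase, which rests on the control mean that the rule used, had a median of 34.7 normalized reads per kb against 160. These are descriptions of a set chosen on the same counts.

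Relatives and binding partners of the 9 genes given with coordinates above were written as 9 lists, and members of the 53 were left out of the counts. Of 165 listed relatives, 60 were in the table at a testable level. By limma with Benjamini-Hochberg adjustment, 32 of the 60 were lower and 27 higher in knockout cells, and the median change was -0.28 on the log2 scale. Over all 7516 tested genes, 46.7% were lower and 47.3% higher, with a median of 0.14. Nearly every tested gene thus passed the test in some direction, 94.1% in all.

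The ligand and receptor partners of FLRT2 moved apart. ADGRL3, the latrophilin that binds FLRT proteins, fell from 256 ± 17.9 to 73.3 ± 7.41 normalized reads (SD, n = 3 per group; log2 fold change -1.79, limma adjusted p = 8.82e-09). UNC5B, a netrin receptor that also binds FLRT proteins, rose from 338 ± 45.7 to 813 ± 52.2 (1.27, limma adjusted p = 1.36e-09). FLRT1 was low in both groups, at 17.2 and 46.0. None of the other IgLON genes was tested beside NEGR1.

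Among Siglec receptors, 3 of 4 tested relatives of SIGLEC6 rose. CD33, the sialic acid receptor used as a myeloid marker, lies in the same chromosome 19 cluster and rose from 435 ± 53.6 to 990 ± 35.3 normalized reads (log2 fold change 1.19, limma adjusted p = 7.82e-10). SIGLEC12, the nearest tested Siglec gene to SIGLEC6, fell from 2583 to 2056 (-0.33, limma adjusted p = 0.000285). Siglec genes of this cluster are alike in sequence, so their reads may be split among copies.

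LY86 and its partner went opposite ways: CD180 rose from 26.98 ± 11.96 to 93.7 ± 11.4 normalized reads (log2 fold change 1.86, limma adjusted p = 4.51e-05). Of the 8 tested genes on the list of MD-1, MD-2 and Toll-like receptors, 6 rose and 2 fell. TLR2, the receptor for bacterial lipoproteins, rose from 157 to 763 (2.32), and UNC93B1, a chaperone of endosomal Toll-like receptors, rose from 1694 to 3236 (0.93). TLR6, a partner of TLR2, fell from 305 to 140.4 (-1.11).

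Peptidylarginine deiminases beside PADI3 fell in 2 of 2 tested cases. PADI1 and PADI2 lie beside PADI3 on chromosome 1; PADI1 fell from 104 ± 13.8 to 36.2 ± 5.71 normalized reads (log2 fold change -1.50, limma adjusted p = 2.32e-05) and PADI2 from 322 ± 29.4 to 223 ± 43.7 (-0.54, limma adjusted p = 0.00342). SIPA1L1, the closest relative of SIPA1L2 in the list, fell from 176 to 48.6 (-1.86). Of the 8 tested genes of the RAP list, 5 fell, among them RAPGEF1, an exchange factor that switches RAP on (-1.04), and RAP2B (-0.65). The 3 that rose included RAP1B (0.67).

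BTB-kelch adaptors related to KLHL13 fell in 14 of 23 cases and rose in 9. KLHL24 fell from 1377 to 478 normalized reads (log2 fold change -1.53), KLHL3 from 213 to 83.0 (-1.35) and KLHL6, an adaptor of germinal centre B cells, from 3761 to 1545 (-1.28). KBTBD11 rose from 51.1 to 227 (2.13), and the scaffold CUL3 rose from 671 to 952 (0.51). Of 5 tested microfibril and elastic fibre genes, 2 fell and 2 rose. ELN, elastin itself, fell from 30.9 to 1.26 normalized reads (-3.99, limma adjusted p = 3.22e-05) and FBN1, a fibrillin, from 54.8 to 26.6 (-1.01), the latter call lost without control 1 (limma adjusted p = 0.0619). EMILIN2, an elastin-associated glycoprotein, rose from 1462 to 5947 (2.02), and FBN2 rose (0.36). Readers and oxidisers of methylated cytosine, listed for ZNF618, fell in 5 of 7 cases, including TET2 (-0.52), TET3 (-0.50) and ZBTB4 (-0.56). MBD3, a subunit of the NuRD complex, rose (0.72).

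**Figure D3:**
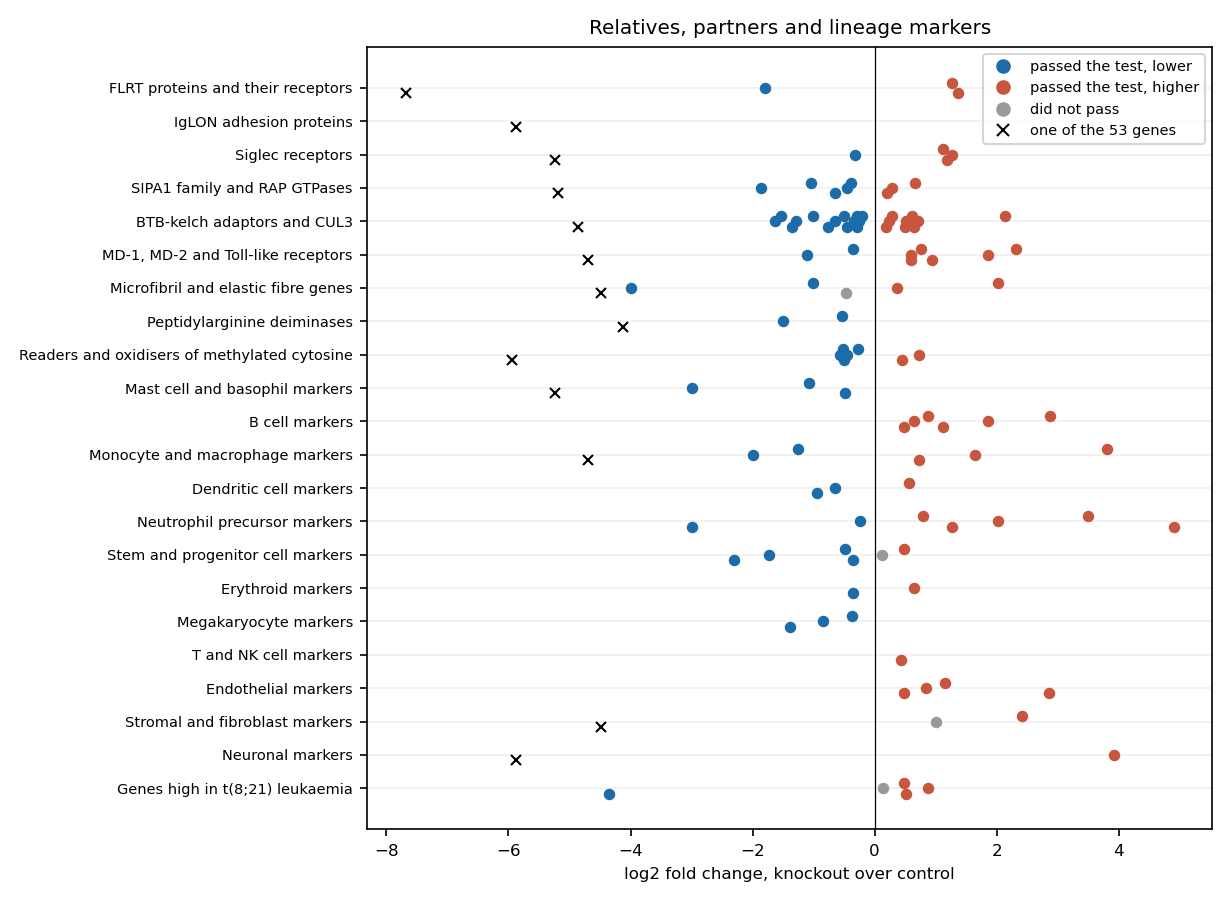
Log2 fold change of knockout over control (horizontal axis) for each tested gene of the 9 lists of relatives and partners and the 13 lists of lineage markers, a row each; filled circles are coloured by direction where the gene passed the test, grey where it did not, and crosses are genes of the 53. Mast cell markers lie left of 0 and B cell markers right of it, and CD180, which is on 2 of the lists, lies at 1.86 on both.

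Several of the 53 genes serve as markers of blood or tissue cells, so lists of lineage markers were followed in the same libraries. Of 161 listed markers, 44 were tested, of which 17 were lower and 24 higher in knockout cells (median log2 fold change 0.50). Most listed markers, of myeloid and other lineages alike, were not in the table at a testable level. For example, 3 of 14 mast cell, 5 of 14 monocyte and 6 of 13 B cell markers were tested, genes of the 53 left aside. The table leaves out genes that did not move, so a missing marker may still be expressed. The part of any change in cell make-up in the levels of the 53 genes was not tested.

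Mast cell markers fell in 3 of 3 cases beside SIGLEC6. KIT, the stem cell factor receptor, fell from 60704 to 43551 normalized reads (log2 fold change -0.48, limma adjusted p = 2.74e-06) and HPGDS, the prostaglandin D synthase of mast cells, fell from 87.9 to 41.1 (-1.08, limma adjusted p = 0.000916). SLC18A2, a monoamine transporter, fell from 28.4 to 3.01, and the tryptase TPSB2 was at 4.34 and 0. Summed over the 4 of the 14 listed mast cell markers that were in the table, without SIGLEC6, the level was 59819 to 61721 in controls and 42819 to 44400 in knockouts, nearly all of it KIT. Megakaryocyte markers fell in 3 of 3, including ITGA2B (-0.84) and FLI1 (-0.37).

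B cell markers rose in 6 of 6. CD79B, a chain of the B cell receptor complex, rose from 73.0 to 524 normalized reads (log2 fold change 2.87, limma adjusted p = 1.05e-11), and CD79A rose from 119 to 188 (0.65). PAX5, the B cell factor known to be expressed in t(8;21) leukaemia, rose from 838 to 1162 (0.48). The summed level of the 7 of 13 listed B cell markers in the table was 1025 to 1258 in controls and 2070.0 to 2239 in knockouts, and IGLL1, a surrogate light chain gene, was at 17.5 and 0. LY86 and LAX1, which B cells also express, were among the 53.

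Neutrophil precursor markers rose in 5 of 7. PRTN3, the granule protease proteinase 3, rose from 58.2 ± 8.27 to 1754 ± 53.4 normalized reads (log2 fold change 4.90, limma adjusted p = 2.86e-18), AZU1 rose from 26.3 to 305 (3.49) and CEBPE, a transcription factor of late granulocytes, from 218 to 526 (1.27). MPO, the granule peroxidase, fell from 12254 to 1541 (-2.99). Monocyte markers beside LY86 were split, with 3 higher and 2 lower, and the 5 of 14 in the table summed to 193 to 267 in controls and 261 to 333 in knockouts. CSF1R rose (0.73), a call lost without control 1 (limma adjusted p = 0.0884).

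Stem and progenitor markers fell in 4 of 6 and rose in 1. NPR3 fell from 7849 to 2364 normalized reads (log2 fold change -1.73), MSI2 fell (-0.35), and CD34 was at 7153 and 7818 and did not pass the test (limma adjusted p = 0.0695). Dendritic cell markers fell in 2 of 3: FLT3 from 597 to 310 (-0.95) and IL3RA (-0.65), the latter call lost without knockout 2 or without control 2 (limma adjusted p = 0.0681 and 0.134). ZBTB46 rose (0.56). Endothelial markers rose in 4 of 4, with ESAM at 101 and 710 (2.85), TIE1 (1.16), EGFL7 (0.84) and ERG (0.49). The single tested neuronal marker, SYT1, rose from 15.9 to 246 (3.93), although NEGR1, of the same list, was among the 53.

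The 53 genes were spread over 20 chromosomes. Chromosome 1 held 10, or 1.61% of its 623 protein-coding genes at that level, chromosomes 9 and 19 held 5 each, and chromosome 13 held 3 of only 94. None lay on chromosomes 18, 20 or 21. Close pairs were few. MAB21L1 lies in an intron of NBEA on the opposite strand, and both are among the 53. Without stranded counting, NBEA reads from that intron could be counted for MAB21L1, while reads of NBEA exons elsewhere would not be. SYT11 and LMNA are 0.197 Mb apart on chromosome 1, CEMIP2 and ANXA1 1.34 Mb apart on chromosome 9, and TMIGD2 and C3 2.38 Mb apart on chromosome 19. No other pair lay within 3 Mb.

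The neighbours of the 53 on the chromosome were followed as well. Of the 400 tested neighbours within 1 Mb, 217 were lower (54.3%) and 156 higher (median log2 fold change -0.26). Over all 7463 tested genes outside the 53, 46.4% were lower and the median was 0.15. By distance, 42 of 60 neighbours that overlapped or lay within 100 kb were lower (70.0%, median -0.50), against 44.8% of tested genes on the same chromosomes. From 100 to 250 kb the share was 44.1%, from 250 to 500 kb it was 44.9%, and from 500 kb to 1 Mb it was 55.7%. With the 5 overlapping neighbours set aside, 37 of 55 within 100 kb were lower (67.3%). The distance bins and the share on the same chromosomes were chosen after these values were seen, neighbours of a gene share their region, and no test of the share was made.

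**Figure D4:**
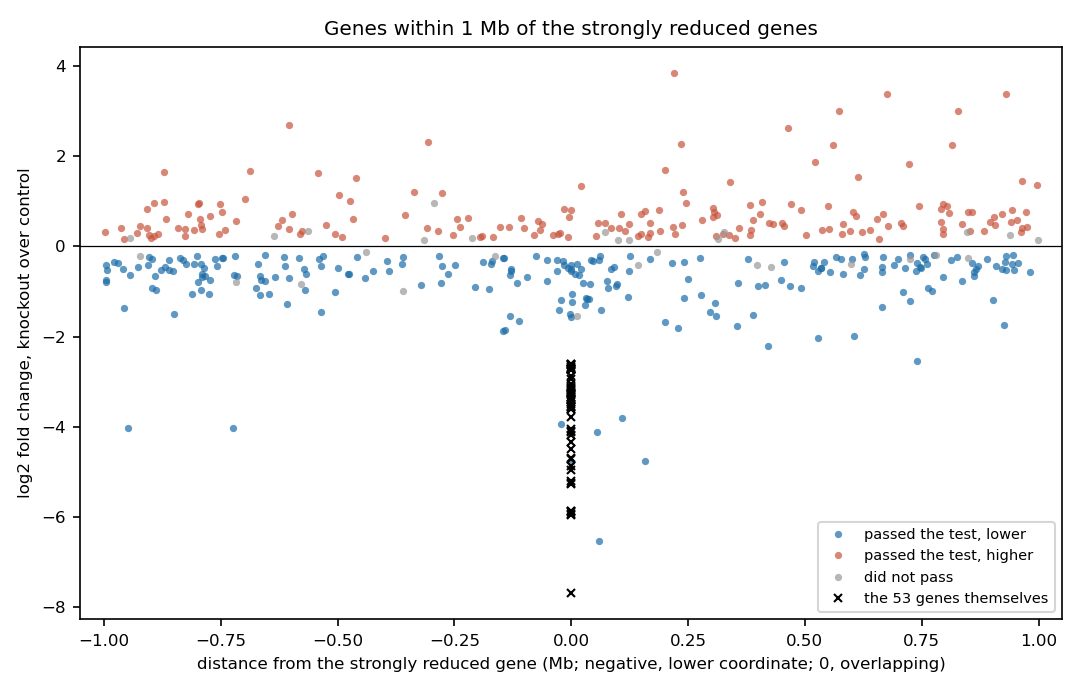
Log2 fold change of knockout over control (vertical axis) of the tested genes within 1 Mb against their distance in Mb from the strongly reduced gene (0, overlapping; negative, lower coordinate), with the 53 genes as crosses at 0. Points within 100 kb lie mostly below 0 (42 of 60 passed the test as lower), while those farther out lie on both sides.

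Some of these close neighbours were strongly reduced themselves. AC019117.1, a long intergenic RNA 59.3 kb from AHR on chromosome 7, went from 620.8 ± 27.5 to 5.99 ± 1.96 normalized reads (log2 fold change -6.52, limma adjusted p = 4.79e-15), a deeper loss than that of AHR. HDAC9, a class II histone deacetylase farther along the same chromosome, fell from 643 to 111 (-2.53). All 3 tested neighbours of AHR were lower, TSPAN13 being the third (-0.65).

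RGS1 sits in a cluster of RGS genes on chromosome 1, and all 4 of its tested neighbours were lower. RGS13, 56.1 kb away, went from 31.0 ± 8.34 to 1.65 ± 2.87 normalized reads, and RGS2, an inhibitor of Gq signalling, fell from 428 ± 19.0 to 124 ± 35.2 (log2 fold change -1.82, limma adjusted p = 1.07e-08). RGS18, an RGS protein of platelets, fell from 361 to 247 (-0.54). HES1 had 5 of 6 tested neighbours lower, and the long intergenic RNA LINC02037 went from 54.6 to 3.55. LY86 had 6 of 7 lower, among them AL031123.3, from 75.3 to 30.0, and AL031123.1, from 72.1 to 31.7.

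Neighbours within 100 kb with a log2 fold change of -1 or less included several well known genes. STARD4, a cholesterol carrier 1.15 kb from CAMK4, fell from 3671 to 1569 normalized reads (log2 fold change -1.23). ATP2B4, a calcium pump 21.1 kb from LAX1, fell from 2503 to 1097 (-1.19). TGFBR1, the type I TGF-beta receptor, 33.2 kb from COL15A1, fell from 692 to 306 (-1.17), and RALGAPA1, 1.30 kb from INSM2, fell from 1064 to 511 (-1.06). In all, 16 of the 60 neighbours within 100 kb reached that fold, SCN4B near TMPRSS4 without passing the test (limma adjusted p = 0.0584), and 1 had a log2 fold change of 1 or more, STAP2 near TMIGD2 (1.34).

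The pattern was not the same around every gene. A tested neighbour was found for 49 of the 53, and the median of the neighbours was below 0 for 33 and above 0 for 16. All tested neighbours were lower for 15 genes, 9 of which had 3 or more. The longest such runs were 18 of 18 around MMP28 on chromosome 17, led by RDM1 (-1.11) and RFFL (-1.09), and 11 of 11 around ZNF618 on chromosome 9, led by WDR31 (-1.46), AKNA (-1.08) and BSPRY (624 to 309.9 normalized reads). SIPA1L2 had 3 of 3, with PCNX2 falling from 148 to 31.5 normalized reads (-2.20) and NTPCR from 811 to 283 (-1.52). SKIL had 7 of 8 lower, including TNIK (-1.33) and PHC3 (-0.94), and NOS2 had 14 of 19, including KSR1 (-1.54).

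Other regions went the other way. Around TMIGD2, 17 of 22 tested neighbours were higher, led by LRG1 (82.4 to 401 normalized reads, log2 fold change 2.28), TJP3 (1.63) and MYDGF (1.43). Around KLF2, 16 of 21 were higher, and around SYT11, 28 of 42. SDC3 had 3 lower and 2 higher of 6, with LAPTM5, a lysosomal protein of blood cells, falling from 2991 to 953 (-1.65). FLRT2 had no tested neighbour within 1 Mb, since LINC02328, the single gene of the table there, was too low.

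Overlap with other genes limits what these counts can separate. In the GENCODE 29 annotation, 34 of the 53 genes overlap another gene and 26 overlap one on the opposite strand, while 11 overlap a gene that is in the table. These are overlaps of whole spans, introns included, so fewer may share counted exons. The antisense transcript AC009646.2, which overlaps OPRK1, went from 28.98 normalized reads to 0, and LY86-AS1 fell from 22.9 to 8.41 (log2 fold change -1.56, limma adjusted p = 0.0217). TAF15 overlaps MMP28 and fell from 6592 to 4967 (-0.41), and MAPK7 overlaps MFAP4 and fell from 328 to 233 (-0.49). The library kit marks strand, and no source used here says whether the counting used it.

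The same limits applied to the other classes of gene gave 10 rows. They were led by AC019117.1 and followed by TOB1-AS1 (155 to 24.3 normalized reads), the long intergenic RNAs AC007998.3, LINC01114, AL161910.1, AC026904.1, LINC02037 and FAM95B1, and the pseudogenes TRBVB and ANKRD20A7P. Of these, AC019117.1 and LINC02037 lay within 1 Mb of a gene of the 53. In the opposite direction, 59 protein-coding genes had a knockout mean of at least 50 and a control mean at least 6 times lower.

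Start regions were compared over the 250 bases before the RefSeq start, found for 39 of the 53 genes. CpG-rich promoters are typical of broadly expressed genes. In the 39 the ratio of observed to expected CpG had a median of 0.583, against 0.838 in 5074 other protein-coding genes with a control mean of at least 50. It was above 0.6 in 19 of 39 (48.7%) and in 82.8% of the others. Restricting the others to the same range of control means gave 82.3%. Among genes selected by the mirrored rule, higher in knockout, it was above 0.6 in 44.7% of 47, and over all 35116 RefSeq promoters in 47.5%. No test of these shares was made.

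**Figure D5:**
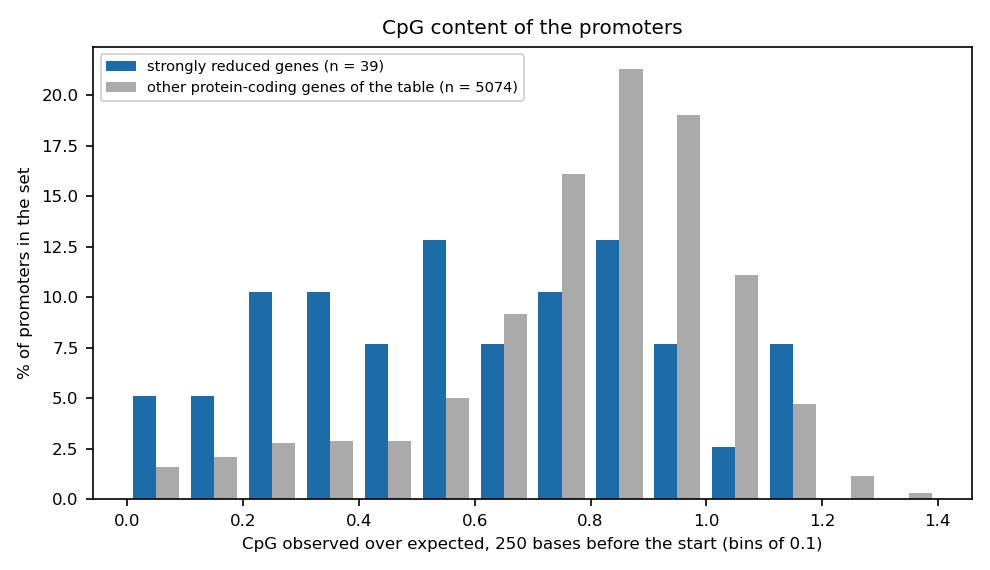
Share of promoters (vertical axis, percent of the set) by ratio of observed to expected CpG in the 250 bases before the start (horizontal axis, bins of 0.1) for 39 of the 53 genes and 5074 other protein-coding genes with a control mean of at least 50. The others peak between 0.8 and 1.0, while the 39 are spread from 0 to 1.2.

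Short motifs were counted on both strands, and matches of different motifs may overlap. The RUNX letters TGTGGT or TGCGGT were found in 10 of 39 promoters (25.6%), against 15.4% of the other 5074 and 16.3% of all 35116: besides the 5 shown above, those of IKZF2, LY86, MEX3B, NBEA and PCYT1B. The E-box CANNTG was found in 25 (64.1%, against 51.6% of the others and 61.8% of all), and TATAAA in 5 (12.8%, against 4.97% and 10.7%). The GATA letters AGATAA were in 3 (7.69%, against 4.04% and 9.17%), the AP-1 letters TGANTCA in 1 (2.56%, against 3.61% and 6.57%) and the CRE letters TGACGTCA in 1 (2.56%, against 2.74% and 1.65%). The ETS letters CCGGAAGT, found in 8.16% of the others and 3.42% of all, were in none of the 39. For 11 of the 39 the bases after the RefSeq start were in no GENCODE 29 transcript of the gene, so those windows may not be the start used in these cells. The RefSeq start lay within 100 bases of the start of the gene model for only 21 of the 39, and 382293 bases from it for AHR. The 39 and the 5074 hold 1 start per gene, but the 35116 were not reduced to 1 per gene. These limits apply to the CpG ratio as well.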

How the data were processed

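RNA of 6 Kasumi-1 libraries, 3 per group, was measured; mRNA was captured on poly-T beads and prepared with a directional NEBNext Ultra kit, per the labels' protocols. HISAT2, DESeq2 and build hg38 are named, per the submitters' processing notes; versions, the read counter and its strand setting are not given in those notes or the labels. The authors deposited 1 signal value per gene and library, a read count divided by a size factor for that library: dividing by what 1 read is worth gave whole reads within 0.001 for 100% of values. For control 3 and knockout 2, where 1 read is worth 0.991 and 0.993, this is less certain, as are tests on those reads. The authors also deposited log2 fold changes, p-values up to 0.049998 and adjusted p-values whose ratio shows an adjustment over 19860 genes; none is used as a result here.

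The 7516 genes whose mean reached 10 were tested two-sided on log2(value + 1) by limma-trend (R 4.3.3 with limma 3.58.1), with Benjamini-Hochberg adjustment over 19860 genes and a threshold of 0.05. Fold changes are knockout over control on that scale, so the change of genes with few reads is understated. The listed genes were already selected for a difference, so counts of calls are read against the table. Depth was 10966349 to 12557974 reads in listed genes; intervals and floors cover counting error only. On simulated counts for the 7516 genes, the test recovered 74% of genes changed 1.5-fold and 100% of those changed 6-fold. The simulation gave every gene the same extra spread between libraries and changed only a small part of the genes. Its recovery is therefore not the power reached in these libraries.

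The 53 genes and all lists were chosen with earlier results of these data known, and the functional groups were assigned by hand. All but 1 of the 53, which is not reported here, are named; values per library are given for the 9 genes singled out when the set was proposed and the 15 others with the highest control mean. Of relatives, markers and neighbours within 1 Mb, called genes of mean 50 or more with the largest change are named, up to 4 per list or gene. RGS13, SLC18A2, ELN, FBN1, FLRT1, CD34, RUNX1T1, ROBO1, LINC02328, SCN4B and the genes overlapping members, just outside the limits or of other classes were chosen after their values were seen. Coordinates are those of the table, which match GENCODE 29 for all 53. Promoters are from RefSeq (GRCh38.p14). Alternatives were TMM and upper-quartile scaling, edgeR 4.0.16, DESeq2 1.42.0, other filters, pseudocounts, limits and windows, a replicate block and leaving out each library.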

Additional observations from a re-analysis of the deposited data

How the results depend on the processing

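The 53 genes were the same 53 under TMM and upper-quartile scaling, and leaving out each library gave 51 to 55 genes, of which 49 to 51 were shared with the 53. KLF2, LMNA, TMPRSS4, ADAM12, MMP28, TMIGD2, FSTL5 and AHR each dropped out in at least 1 of these. Other limits gave 68 genes (5-fold), 39 (8-fold), 74 (control mean of at least 20) and 43 (at least 100). Requiring the highest knockout library to lie at least 6 times below the lowest control library gave 35. Fold changes of the 53 were compared with 1 SD between libraries of a group, pooled over control and knockout on the log2 scale. The knockout libraries, with few reads, widen this SD for many of the 53. The fold changes stayed within it in 754 of 786 comparisons, moved in 32 (20 of them with a pseudocount of 5), and none reversed. The replicate block and the filters on level leave a gene's fold change as it was, so those comparisons could not move. A reversal was hardly possible for genes chosen to be at least 6 times lower. Of 200 other named genes that were followed, 26 lost a call under at least 1 alternative (73 calls lost, 3123 kept), and none reversed. With a mean of at least 50 required, 11 lineage markers were lower, against 17, because fewer were tested. Neighbours lower and higher numbered 185 to 201 and 134 to 143 when each library was left out, and 57.1% and 50.2% were lower within 0.25 and 3 Mb. The median log2 fold change of all tested genes, 0.14, was 0.096 under upper-quartile scaling and -0.12 with no filter. Same-numbered libraries did not deviate together (correlations of 0.009, -0.003 and -0.05), so no pairing was seen. With 3 libraries per group this cannot exclude that the numbers pair them. With the replicate number as a block, 3522 genes were lower and 3569 higher, and 218 and 158 of the neighbours. For the 2 genes with no read in any knockout library, depth allows only a lower bound of the fold.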
